A study of Mus musculus with 8 samples.

Results

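Receptor tyrosine kinases are cell surface proteins with an intracellular kinase domain, which in most of them is switched on when an extracellular ligand binds. Once active, they pass signals through adaptor proteins to the RAS-MAPK and PI3K-AKT pathways, which control growth, survival and movement of cells. Kit, the receptor for stem cell factor (Kitl), is known from germ cells, melanocytes and blood progenitors, and is also made by mouse embryonic stem cells (ESCs). The genes described here are Kit, its ligand Kitl, and the receptors Met, Epha1, Epha2, Erbb2, Erbb3, Igf1r and Insr, which make 9 of the 55335 genes counted. They were chosen by name, from this gene family, with the values of these libraries known, so their own changes are given as a description and without a test.

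The libraries were made from poly(A) RNA of E14, a line of mouse ESCs, infected with a lentivirus (GV248) that carries a short hairpin RNA (shRNA), and selected with puromycin. The 4 groups of 2 biological replicates were cells with a control shRNA, Sox2-KD (knockdown of the pluripotency factor Sox2), hnRNPK-KD (an RNA-binding protein) and Cdk9-KD (the kinase of the elongation factor P-TEFb). All groups share the infection, the selection and a medium with LIF, the GSK3 inhibitor CHIR99021 and the MEK inhibitor PD0325901, and MEK lies downstream of the receptors described here. More than 1 shRNA was made for each target, and which of them a library received is not stated.

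The 8 libraries held between 16709201 and 17719366 counts, and 16504 genes passed the filter on low counts, all 9 members among them. Levels are given as CPM, the counts scaled to library size after TMM normalization, and differences as the log2 fold change (log2FC) with its standard error (SE) from an edgeR quasi-likelihood fit of all libraries. A gene outside the 9 was called changed where its log2FC exceeded 0.6 in size with an adjusted p below 0.05. Sox2 mRNA had 412 and 530 CPM in control and 320 and 284 CPM in Sox2-KD (log2FC -0.64, edgeR adjusted p = 0.0479), and this call was lost under 11 of 15 other settings. Cdk9 had 109 and 129 CPM in control and 73.1 and 53.2 CPM in Cdk9-KD (log2FC -0.91, edgeR adjusted p = 0.0985). Hnrnpk had 1094 and 1131 CPM in control, against 697 and 1144 CPM in libraries labelled hnRNPK-KD, so that the second of them was not below control, and directions given for that group depend on the label. The pluripotency markers Pou5f1, Nanog, Zfp42, Esrrb, Klf4, Dppa5a, Tdgf1, Dppa3 and Tfcp2l1 together had 6994 to 7638 CPM in control and 6360 to 7233 CPM in Sox2-KD, and edgeR called 0 of 9, with 1 at an unadjusted p under 0.05.

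The member with the widest range of levels was Kit. Its level was 228.9 and 357.7 CPM in the control libraries, and 28.8 and 29.3 CPM in the Sox2-KD libraries. The libraries labelled hnRNPK-KD had 192.7 and 179.5 CPM, and the Cdk9-KD libraries 168.1 and 156.5 CPM. The ranges of the 4 groups did not overlap, with control highest, then the group labelled hnRNPK-KD, Cdk9-KD and Sox2-KD. The gap between the 2 control libraries was wider than the gap between the lower of them and every library labelled hnRNPK-KD.

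Against control, the fitted log2FC of Kit was -3.33 (SE 0.21) in Sox2-KD, -0.66 (SE 0.19) in the group labelled hnRNPK-KD and -0.85 (SE 0.19) in Cdk9-KD. All 3 comparisons share the same 2 control libraries. Without the first control library the Sox2-KD value was -3.64, and without the second it was -2.98. The value in the group labelled hnRNPK-KD moved from -0.96 to -0.31 in the same way, and that in Cdk9-KD from -1.18 to -0.52. Which control library entered the fit therefore changed the size of both smaller differences by over 1.5 times, and the sign of none.

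**Figure D1:**
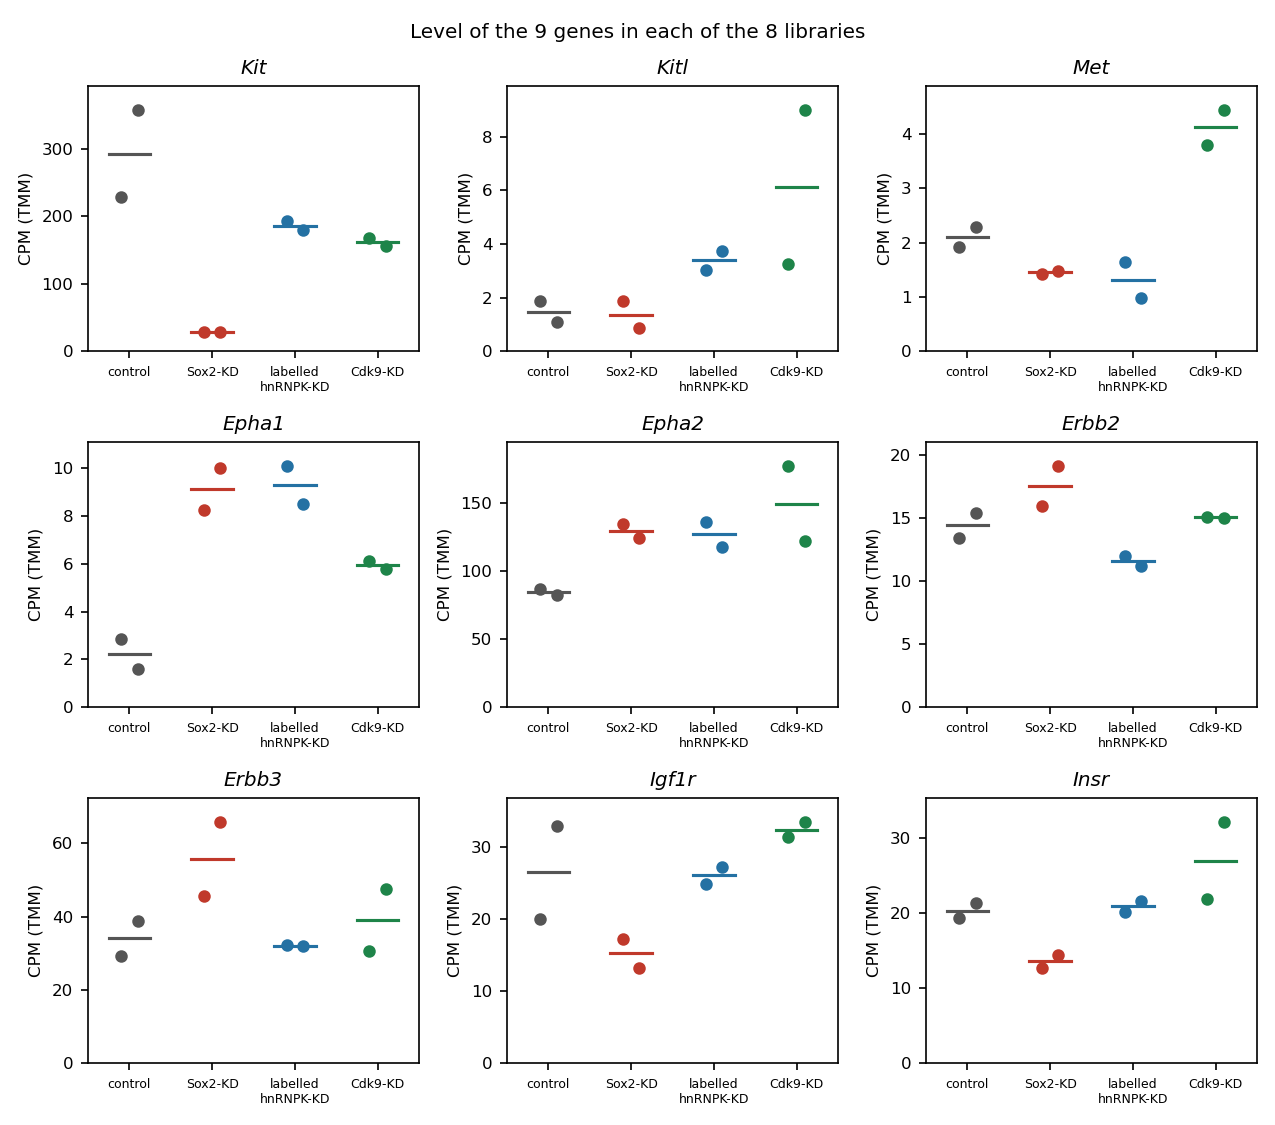
Level of each of the 9 genes (vertical axis, CPM after TMM scaling, from 0) in the 8 libraries, with 1 point per library and a bar at the mean of the 2 libraries of a group. Kit is near 29 CPM in both Sox2-KD libraries and at 228.9 and 357.7 CPM in control, and the Epha1 points of all knockdown libraries lie above both control points.

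To compare genes, levels were divided by the length in kilobases (kb) of all annotated exons of a gene, so that ranks depend on the annotation. On this scale Kit had 32.9 CPM per kb in control, the level ranked 2 among 58 receptor tyrosine kinases after Epha4, an ephrin receptor. This was 14.4% of the level of the whole family added up. In Sox2-KD it had 3.26 CPM per kb, rank 14 and 1.38% of the family. In the group labelled hnRNPK-KD its rank was 3, and in Cdk9-KD it was 5. Epha4 stayed at rank 1 in every group, with 37.4 CPM per kb in control and 50.9 CPM per kb in Sox2-KD. These ranks are those of group means. Per kb, Kit lay above Epha4 in the second control library and below it in the first.

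**Figure D2:**
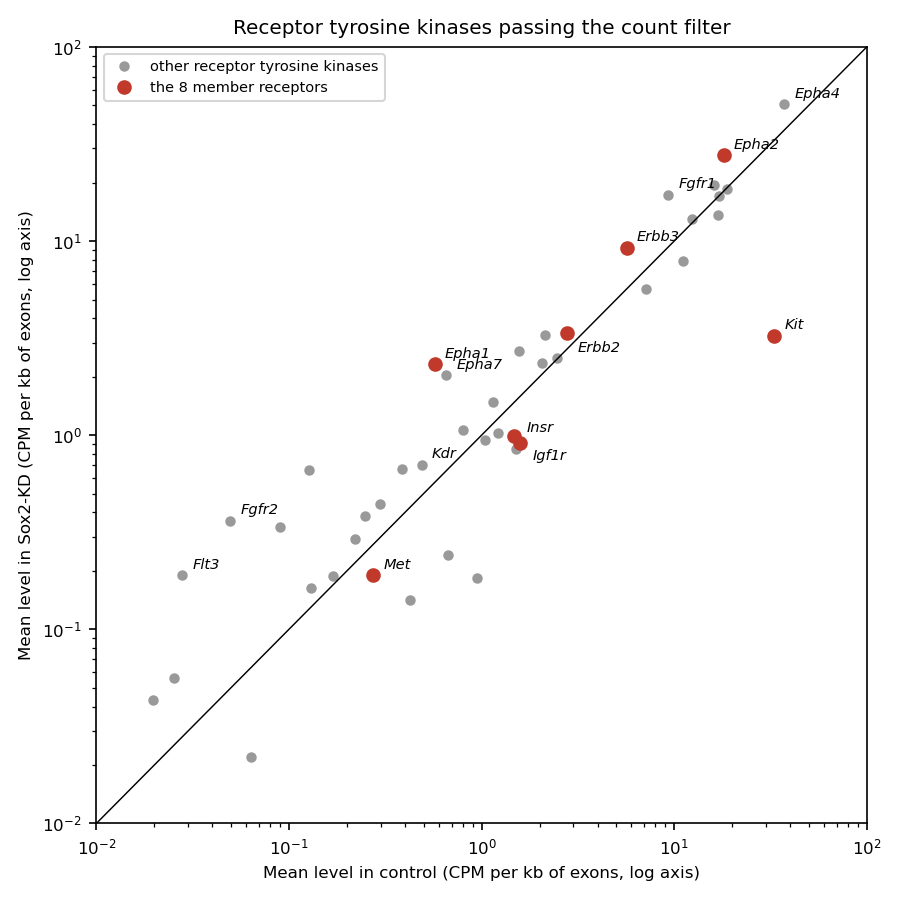
Mean level in Sox2-KD against mean level in control for the 44 receptor tyrosine kinases that passed the count filter, both in CPM per kb of exons on log axes, with the line of equal levels. Kit, at 32.9 and 3.26 CPM per kb, lies farthest below the line, and Epha1, Epha7, Fgfr2 and Flt3 lie above it.

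The hairpins given for Sox2 are shown because a match to Kit could lower its mRNA directly. SOX2-shRNA1 matches the coding part of the only exon of Sox2 (mm10, chr3:34650729-34650749, plus strand), and SOX2-shRNA2 the 3′ UTR of the same exon (chr3:34651412-34651432). The lines give the 21 target bases 5′ to 3′ in lower case, and the closest stretch of a Kit transcript with the matching bases in capitals.
SOX2-shRNA1 target: aggagcacccggattataaat
Closest Kit stretch for SOX2-shRNA1: ccGAGCACCaGcAgTggAtAT
SOX2-shRNA2 target: caaagagatacaagggaattg
Closest Kit stretch for SOX2-shRNA2: CAAAGAGATgCAtacaAAaTG
The Kit stretch differed from SOX2-shRNA1 at 8 of 21 bases, and 66.8% of 16492 genes had a stretch as close. It differed from SOX2-shRNA2 at 6 of 21 bases, and 8.03% of genes had a stretch as close. Kit transcripts held 0 matches to the seed (bases 2 to 8 of the guide strand) of either hairpin. Among the hairpins for Cdk9, the seed of CDK9-shRNA1 matched Kit 1 time and that of CDK9-shRNA2 matched it 2 times. Of the other members, the seed of SOX2-shRNA1 matched Igf1r 2 times, Kitl, Met, Epha1 and Insr 1 time each, and the rest 0 times. That of SOX2-shRNA2 matched Igf1r 2 times, Kitl, Erbb3 and Insr 1 time each, and the rest 0 times. How often these seeds match other genes was not counted. Whether any hairpin acted on Kit or on another member was not tested.

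Kit lies on chromosome 5 (mm10, chr5:75574916-75656722, plus strand) between 2 related receptor genes, Pdgfra at 376.7 kb and Kdr at 276.1 kb, with 0 protein-coding genes in either gap. Pdgfra, a platelet-derived growth factor receptor, had 1.75 and 2.69 CPM in control and 2.75 and 3.08 CPM in Sox2-KD. Kdr, a receptor for vascular endothelial growth factor, had 3.55 and 5.27 CPM in control and 5.93 and 6.79 CPM in Sox2-KD. Neither passed the test in Sox2-KD, with a log2FC of 0.39 (SE 0.39, edgeR adjusted p = 0.638) for Pdgfra and 0.53 (SE 0.31, edgeR adjusted p = 0.402) for Kdr. Both neighbours of Kit thus had fitted values above 0 where Kit was lower. In Cdk9-KD, Kdr had 1.87 and 1.54 CPM (log2FC -1.37, SE 0.34, edgeR adjusted p = 0.195), and the difference between Sox2-KD and Cdk9-KD for Kdr passed the test (1.90, SE 0.33, edgeR adjusted p = 0.00824).

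The promoter of Kit is shown because its level differed between all 4 groups, and that of Epha1 because its level was above control in every knockdown library. RefSeq windows (GRCm38.p6, 250 bases before to 50 after the start site) were found for 7 of the 9 members. Capitals mark the GC box (GGGCGG or its reverse complement CCGCCC), the motif bound by SP1-like factors.
Kit promoter, chr5:75574737-75575036, plus strand: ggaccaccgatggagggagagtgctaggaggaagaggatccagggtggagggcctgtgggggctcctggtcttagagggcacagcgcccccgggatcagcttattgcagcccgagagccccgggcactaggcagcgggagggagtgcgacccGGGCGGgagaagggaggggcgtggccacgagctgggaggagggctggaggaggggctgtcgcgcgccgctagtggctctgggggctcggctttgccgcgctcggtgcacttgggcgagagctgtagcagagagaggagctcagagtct
Epha1 promoter, chr6:42373219-42373518, minus strand: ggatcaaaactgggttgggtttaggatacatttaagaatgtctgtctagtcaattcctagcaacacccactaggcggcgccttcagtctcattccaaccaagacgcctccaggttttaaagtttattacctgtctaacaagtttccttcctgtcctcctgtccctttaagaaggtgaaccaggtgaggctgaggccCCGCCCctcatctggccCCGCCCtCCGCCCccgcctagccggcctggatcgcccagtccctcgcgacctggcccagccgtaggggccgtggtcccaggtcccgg
The Kit window had 69.0% G and C and the Epha1 window 58.0%, against a median of 52.7% over all windows. GC boxes were in the windows of 6 of 7 members and in 35.7% of 32851 windows of all genes. The letters of a SOX core, ACAAAG, searched on both strands, were in 1 of 7 member windows, that of Igf1r, and in 18.7% of all windows. The alternative core ACAATG was in 0 of 7 and in 12.6% of all windows, and the POU octamer ATGCAAAT in 0 of 7 and in 1.74%. These matches describe letters in the windows and not binding.

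Kitl (mm10, chr10:100015630-100100416, plus strand) encodes stem cell factor, the ligand of Kit. It was scarce, with 33 and 19 counts in control, 34 and 15 in Sox2-KD, 52 and 64 in libraries labelled hnRNPK-KD, and 56 and 152 in Cdk9-KD. In CPM these were 1.86 and 1.09 in control, 1.87 and 0.86 in Sox2-KD, 3.05 and 3.72 in libraries labelled hnRNPK-KD, and 3.27 and 8.99 in Cdk9-KD. The Sox2-KD libraries overlapped control, and the libraries of the other groups lay above it. The log2FC of Kitl was -0.11 (SE 0.57) in Sox2-KD, 1.196 (SE 0.54) in the group labelled hnRNPK-KD and 2.05 (SE 0.54) in Cdk9-KD. The last value was 1.15 without the second Cdk9-KD library, which held 152 of the counts. In Sox2-KD, where Kit was lowest, 1 Kitl value was above both control values and the other below both.

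Met (chr6:17463800-17573980, plus strand), the receptor for hepatocyte growth factor, had 1.91 and 2.29 CPM in control, 1.43 and 1.48 CPM in Sox2-KD, 1.64 and 0.99 CPM in libraries labelled hnRNPK-KD, and 3.80 and 4.44 CPM in Cdk9-KD. No group overlapped control: Sox2-KD and the group labelled hnRNPK-KD lay below it and Cdk9-KD above. The log2FC was -0.53 (SE 0.38), -0.67 (SE 0.39) and 0.97 (SE 0.37) in that order, and the middle value was -0.38 without the second library labelled hnRNPK-KD and -1.09 without the first. The ligand, Hgf, had 0 to 2 counts in each of the 8 libraries and did not pass the filter. Its relative Mst1r, the receptor for macrophage-stimulating protein, had a log2FC of 0.61 (SE 0.44, edgeR adjusted p = 0.500) in Sox2-KD.

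Epha1 and Epha2 are receptors for ephrin-A ligands, membrane proteins through which neighbouring cells signal to each other. Epha1 lies at chr6:42358487-42373268 on the minus strand and Epha2 at chr4:141301240-141329384 on the plus strand. Epha1 had 2.87 and 1.60 CPM in control, 8.24 and 9.99 CPM in Sox2-KD, 10.1 and 8.497 CPM in libraries labelled hnRNPK-KD, and 6.13 and 5.80 CPM in Cdk9-KD. Every knockdown library lay above both control libraries. The log2FC was 2.02 (SE 0.32), 2.05 (SE 0.32) and 1.41 (SE 0.32) in that order.

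The level of Epha1 is uncertain, since 236 bases (6.01% of its exons) also belong to Zyx on the opposite strand, and whether reads were counted by strand is not stated. Zyx, which encodes the focal adhesion protein zyxin, had 135 and 134 counts in control, 520 and 502 in Sox2-KD, 370 and 248 in libraries labelled hnRNPK-KD, and 336 and 272 in Cdk9-KD. Its log2FC was 1.90 (SE 0.24, edgeR adjusted p = 0.0032) in Sox2-KD, where the test was passed, 1.24 (SE 0.24, edgeR adjusted p = 0.240) in the group labelled hnRNPK-KD and 1.22 (SE 0.24, edgeR adjusted p = 0.0984) in Cdk9-KD. Per 100 Zyx counts there were 37.8 and 20.9 Epha1 counts in control, 28.8 and 34.9 in Sox2-KD, 46.5 and 58.9 in libraries labelled hnRNPK-KD, and 31.2 and 36.0 in Cdk9-KD. In Sox2-KD and in Cdk9-KD this ratio lay within the range of control, and in the group labelled hnRNPK-KD it lay above that range. The part of reads from Zyx in the Epha1 counts was not tested.

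**Figure D3:**
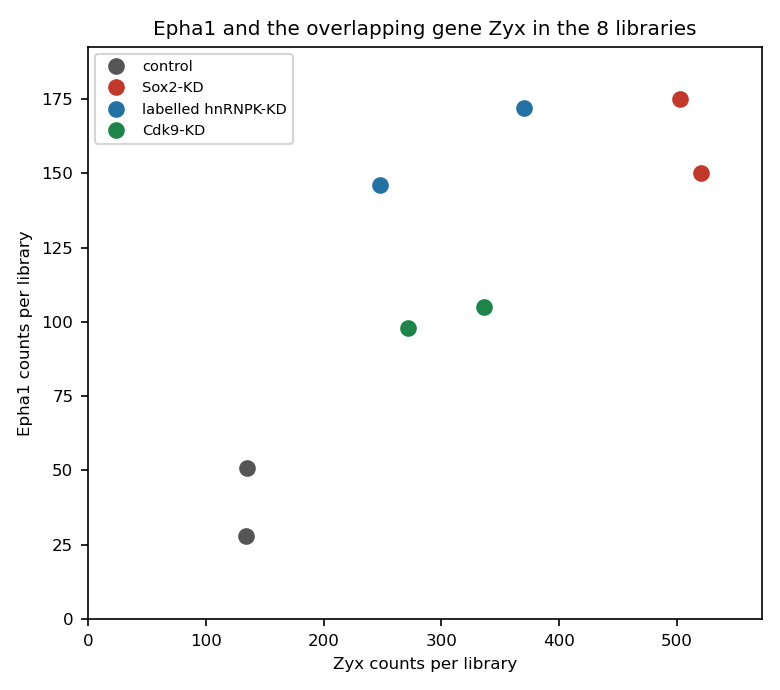
Counts of Epha1 (vertical axis) against counts of the overlapping gene Zyx (horizontal axis) in each of the 8 libraries, coloured by group, both axes from 0. The control libraries sit at 135 and 134 Zyx counts with 51 and 28 Epha1 counts, and the knockdown libraries are higher on both axes.

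Epha2 was abundant, at rank 4 of the family in control with 18.1 CPM per kb and at rank 2 in each knockdown group. It had 86.3 and 82.5 CPM in control, 134.5 and 124.4 CPM in Sox2-KD, 136.1 and 117.6 CPM in libraries labelled hnRNPK-KD, and 176.7 and 121.7 CPM in Cdk9-KD. All knockdown libraries were above control, and the first Cdk9-KD library was highest. The log2FC was 0.62 (SE 0.18), 0.59 (SE 0.18) and 0.82 (SE 0.18), and without that library the last value was 0.50. The 2 ephrin receptors were the members above control in every knockdown library.

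Among the other ephrin receptors, Epha7 rose in Sox2-KD, from 6.25 and 6.70 CPM to 20.99 and 19.23 CPM (log2FC 1.63, SE 0.22, edgeR adjusted p = 0.00489). Its values in libraries labelled hnRNPK-KD, 14.1 and 11.1 CPM, and in Cdk9-KD, 15.3 and 13.5 CPM, were also above control without passing the test (edgeR adjusted p = 0.358 and 0.0985). The differences between the knockdown groups did not pass the test for Epha7 either. Epha4 had 301.2 and 300.8 CPM in control and 346.7 and 473.4 CPM in Sox2-KD (log2FC 0.45, SE 0.18, edgeR adjusted p = 0.192). It was also above control in libraries labelled hnRNPK-KD, at 385.3 and 319.8 CPM, and in Cdk9-KD, at 357.2 and 412.8 CPM (edgeR adjusted p = 0.821 and 0.521). Ephb4, a receptor for ephrin-B2, had 55.0 and 48.1 CPM in control and 34.1 and 39.5 CPM in Sox2-KD (log2FC -0.49, SE 0.16, edgeR adjusted p = 0.112). It was also below control in libraries labelled hnRNPK-KD, at 40.1 and 40.6 CPM, and in Cdk9-KD, at 42.4 and 43.7 CPM (edgeR adjusted p = 0.603 and 0.606).

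Erbb2 and Erbb3 act as a pair: Erbb3 binds neuregulins and has a weak kinase, and Erbb2 has an active kinase and no known ligand. Erbb2 lies at chr11:98412470-98437716 on the plus strand and Erbb3 at chr10:128567523-128589652 on the minus strand. Erbb2 had 13.5 and 15.4 CPM in control, 16.0 and 19.1 CPM in Sox2-KD, 12.0 and 11.2 CPM in libraries labelled hnRNPK-KD, and 15.07 and 15.02 CPM in Cdk9-KD. The log2FC was 0.28 (SE 0.20), -0.32 (SE 0.21) and 0.06 (SE 0.20), with Sox2-KD above control, the libraries labelled hnRNPK-KD below it and Cdk9-KD overlapping it. Without the second Sox2-KD library the first value was 0.14. Erbb3 had 29.3 and 38.8 CPM in control and 45.5 and 65.7 CPM in Sox2-KD, with no overlap. The libraries labelled hnRNPK-KD, at 32.2 and 32.0 CPM, and those of Cdk9-KD, at 30.5 and 47.6 CPM, overlapped control. Its log2FC was 0.71 (SE 0.25), -0.09 (SE 0.25) and 0.20 (SE 0.25), and without the second Sox2-KD library the first value was 0.41. Per kb of exon Erbb3 was above Erbb2 in control, 5.67 against 2.77 CPM per kb. Of their relatives, Egfr had a log2FC of 0.57 (SE 0.31, edgeR adjusted p = 0.354) in Sox2-KD, and Erbb4, with at most 1 count in a library, did not pass the filter.

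Igf1r and Insr are the receptors for insulin-like growth factors and insulin, and they share ligands and form joint receptors. Igf1r lies at chr7:67952827-68233668 on the plus strand and Insr at chr8:3122061-3279617 on the minus strand. Igf1r had 20.05 and 32.94 CPM in control, 17.3 and 13.2 CPM in Sox2-KD, 24.9 and 27.3 CPM in libraries labelled hnRNPK-KD, and 31.4 and 33.5 CPM in Cdk9-KD. Insr had 19.3 and 21.3 CPM in control, 12.6 and 14.4 CPM in Sox2-KD, 20.2 and 21.5 CPM in libraries labelled hnRNPK-KD, and 21.8 and 32.1 CPM in Cdk9-KD. Both genes lay below control in Sox2-KD, Insr lay above it in Cdk9-KD, and the remaining groups overlapped control. The log2FC in Sox2-KD was -0.80 (SE 0.24) for Igf1r and -0.58 (SE 0.22) for Insr. Without the second control library the Igf1r value was -0.40, and without the first it was -1.13. In Cdk9-KD the log2FC was 0.29 (SE 0.24) for Igf1r and 0.41 (SE 0.22) for Insr, and the Insr value was 0.10 without the second Cdk9-KD library. Their relative Insrr held at most 6 counts in a library and was not tested.

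**Figure D4:**
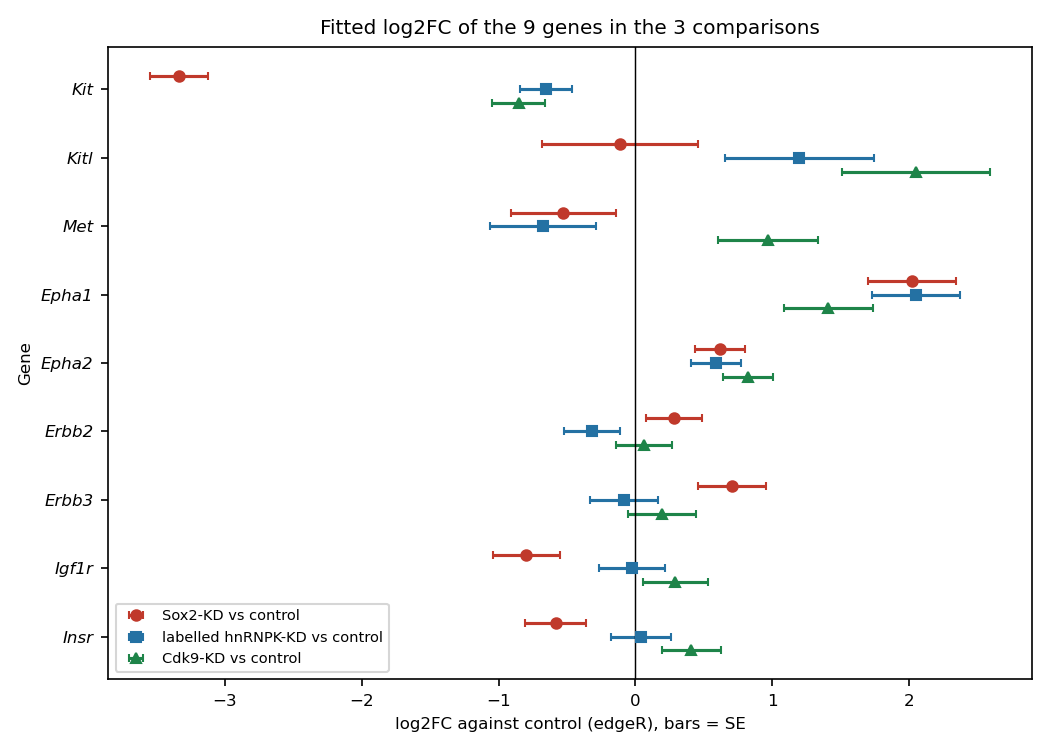
Fitted log2FC against control (horizontal axis, edgeR) of the 9 genes in the 3 comparisons, with bars of 1 SE on each side and a line at 0. Kit in Sox2-KD is at -3.33, Epha1 and Epha2 are above 0 in all 3 comparisons, and Igf1r and Insr are below 0 only in Sox2-KD by more than 1 SE.

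Counted over the members, 4 had both Sox2-KD libraries above both control libraries, 4 had both below, and 1 overlapped, while 28.2% of all genes tested lay above and 25.2% below. In the group labelled hnRNPK-KD, 3 lay above, 3 below and 3 overlapped, with 20.4% and 18.7% of all genes above and below. In Cdk9-KD, 5 lay above, 1 below and 3 overlapped, with 21.2% and 18% of all genes above and below. By the call rule, 2 members were past it in Sox2-KD, Epha1 among the 2.63% of genes higher and Kit among the 1.69% lower, of 4.32% of genes in all. None was past it in the group labelled hnRNPK-KD, where 0% of genes were, or in Cdk9-KD, where 0.139% were. The median log2FC of the 9 was -0.11 in Sox2-KD, -0.02 in the group labelled hnRNPK-KD and 0.41 in Cdk9-KD, beside 0.02 over all genes in each comparison. Since the members were chosen with these values known, nothing is read from the counts.

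Across the 8 libraries, the members whose levels followed Kit most closely were Igf1r, with a Pearson correlation of log2 CPM of 0.81, and Insr, at 0.73. Erbb3 at -0.73, Epha1 at -0.62 and Erbb2 at -0.61 varied against it. Of 9710 genes with enough signal, among the patterns most like that of Kit were those of Psmd2 (0.98), a proteasome subunit, Paqr8, Mpp6 and Rnaseh2b. The least like were Herc3 (-0.98), Ankib1, Washc3, Cdc42bpb and Adgrg1, an adhesion receptor. The size of change was not shared: Psmd2 had a log2FC of -0.22 (SE 0.13) in Sox2-KD and Paqr8 -1.61 (SE 0.22), against -3.33 for Kit. These correlations rest on 8 points in 4 groups, with the low Sox2-KD libraries at their end, and are a description.

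Outside the 9, 50 other receptor tyrosine kinases were listed, of which 36 passed the filter and the other 14 had at most 24 counts in a library. In Sox2-KD, 3 of 36 rose and 0 fell, where 4.32% of all genes were called, and the median log2FC of the 36 was 0.35, beside 0.02 over all genes tested. Flt3, Ephb1 and Flt1 passed the count filter only with the help of the Sox2-KD libraries, where their counts were highest. The 3 of 36 and the median are therefore not read against all genes. The genes that rose were Epha7 and the fibroblast growth factor receptors Fgfr2 and Fgfr1. Fgfr1 went from 87.5 and 96.2 CPM to 151.4 and 191.9 CPM (log2FC 0.90, SE 0.20, edgeR adjusted p = 0.0326). Fgfr2 went from 10 and 8 counts in control to 74 and 60 in Sox2-KD (log2FC 2.86, SE 0.51, edgeR adjusted p = 0.0141), and 3.04% of its exon bases are shared with Ctbp2. Without any 1 of the 4 libraries compared, neither Fgfr1 nor Fgfr2 passed the test, with adjusted p up to 0.239 for Fgfr1 and 0.117 for Fgfr2. Epha7 passed it in each of those fits. Kinases of the same class as Kit, with a split kinase domain, were Pdgfra, Pdgfrb, Flt3 and Csf1r. Pdgfrb had a log2FC of 0.19 (SE 0.28, edgeR adjusted p = 0.769) in Sox2-KD. Flt3 had 0 and 6 counts in control and 23 and 19 in Sox2-KD (log2FC 2.73, SE 0.91). It passed the count filter only through the Sox2-KD libraries, so no p is given. Csf1r had at most 7 counts in a library.

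In the group labelled hnRNPK-KD, 0 of the 36 passed the edgeR test, with 11 at an unadjusted p under 0.05 and 0 called by DESeq2. In Cdk9-KD, 0 of 36 passed it, with 4 at an unadjusted p under 0.05 and 2 called by DESeq2. The medians were -0.14 and -0.07, beside 0.02 over all genes in both.

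Of 29 ligands and binding proteins of these receptors, 19 passed the filter. In Sox2-KD 2 rose and 1 fell, 15.8% beside 4.32% of all genes, with a median log2FC of 0.27 beside 0.02 over all genes. Igf2, which entered the 19 only through the Sox2-KD libraries, is among those that rose. The share of 15.8% is therefore not read against that of all genes. Igfbp2, a secreted protein that binds insulin-like growth factors, fell from 168.3 and 140.1 CPM to 35.8 and 50.7 CPM (log2FC -1.84, SE 0.25, edgeR adjusted p = 0.00489). Igfbp4, another such protein, rose from 12 and 13 counts to 41 and 78 (log2FC 2.23, SE 0.52, edgeR adjusted p = 0.0393), a call lost without either control library or the second Sox2-KD library. Igf2, a ligand of Igf1r and Insr, had 0 counts in all libraries of control, Cdk9-KD and the group labelled hnRNPK-KD, and 26 and 23 counts in Sox2-KD. Taking 3 counts per library as the limit of a count of 0, it was at least 8.04-fold higher in Sox2-KD. It passed the count filter only through the Sox2-KD libraries, so its call is no independent support, and the call was lost without any 1 of the 4 libraries. Igf2 is uncertain, as 62.8% of its exon bases also belong to the annotated gene Gm49394. Igf1 had at most 7 counts, and Ins1 and Ins2 had 0 counts in every library. In the group labelled hnRNPK-KD and in Cdk9-KD, 0 of 19 passed the edgeR test, each with 2 at an unadjusted p under 0.05 and 0 called by DESeq2.

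Of 43 genes that act next to the receptors, 42 passed the filter, and in Sox2-KD 1 rose and 2 fell, 7.14% against 4.32% of all genes, with a median log2FC of 0.11 beside 0.02 over all genes. Gab2, a docking protein that links receptors to PI3K and SHP2, rose from 8 and 13 counts to 50 and 68 (log2FC 2.46, SE 0.46, edgeR adjusted p = 0.0169). Lrig3, a membrane protein of a family that modulates receptor levels, fell from 27.1 and 23.1 CPM to 9.23 and 9.07 CPM (log2FC -1.45, SE 0.22, edgeR adjusted p = 0.00779). Yes1, a kinase of the SRC family, fell from 197.4 and 200.8 CPM to 97.3 and 77.4 CPM (log2FC -1.19, SE 0.20, edgeR adjusted p = 0.0112). Without the first control library or without the second Sox2-KD library, 0 of the 42 passed the test, and without the second control library 1 did. The other 39, among them the adaptors Grb2, Shc1 and Gab1 and the AKT kinases, did not pass it in Sox2-KD. In the group labelled hnRNPK-KD, 0 of 42 passed the edgeR test, with 1 at an unadjusted p under 0.05 and 0 called by DESeq2. In Cdk9-KD, 0 passed it, with 4 at an unadjusted p under 0.05 and 0 called by DESeq2.

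**Figure D5:**
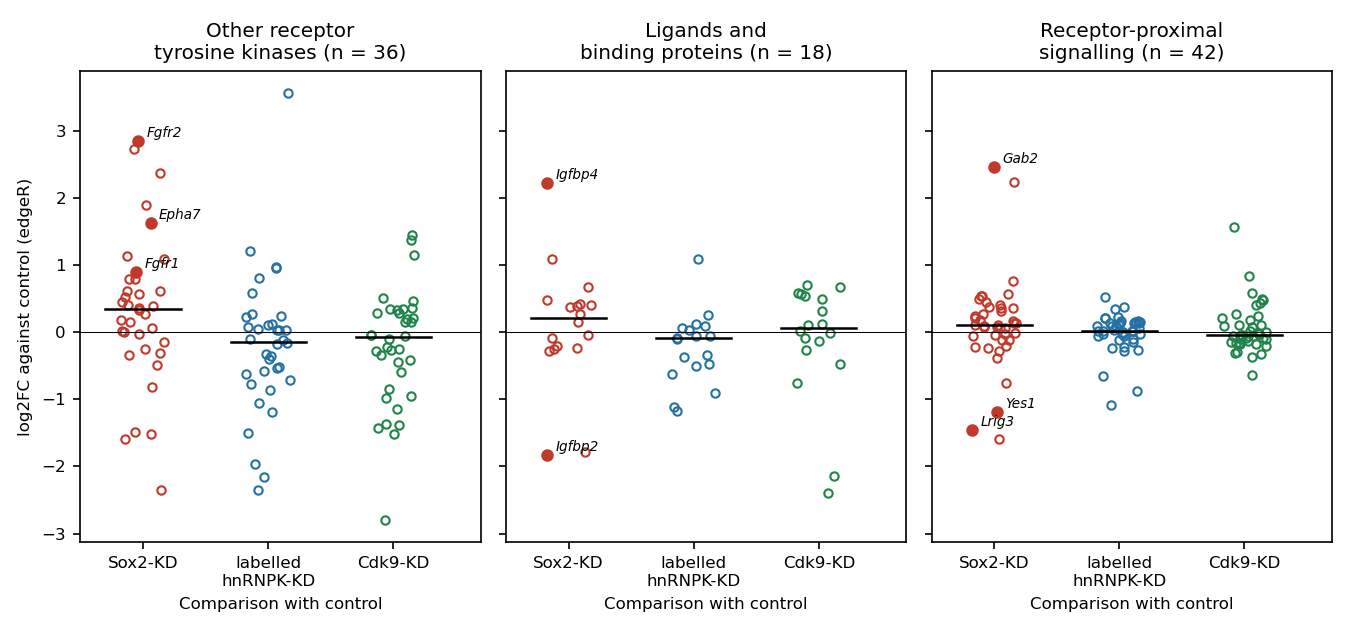
Log2FC against control (vertical axis, edgeR) of the listed genes that passed the filter, by comparison, with filled and named points for genes past the test and a bar at the median; Igf2, at 0 in all control libraries, is left out. Filled points occur only in the Sox2-KD comparison, with Fgfr2 at 2.86, Gab2 at 2.46 and Igfbp4 at 2.23 the highest.

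Markers of other cell types differed in the same libraries, and in more than the Sox2-KD group. Of 9 trophectoderm genes, 7 passed the filter and Krt8, Krt18, Krt7 and Gata3 rose, with a summed level of 49.6 to 69.4 CPM in control and 160.2 to 297.7 CPM in Sox2-KD, while Cdx2 had a log2FC of -2.15 and Elf5 at most 1 count in those libraries. Of 11 primitive endoderm genes, 7 passed the filter, Dab2, Gata6 and Sparc rose and Lama1 fell, with a summed level of 382.4 to 399.8 CPM in control and 503.7 to 678.8 CPM in Sox2-KD, and Ttr had 0 counts there. That sum was also above control in the group labelled hnRNPK-KD, at 452.3 to 510.2 CPM, and in Cdk9-KD, at 499.5 to 544.7 CPM, with 0 of 7 called by edgeR in each, and 0 and 1 at an unadjusted p under 0.05. Krt7 and Gata3 passed the count filter only through the Sox2-KD libraries. The germ cell list, of cells known to carry Kit, summed to 77.0 to 86.2 CPM in control and 69.7 to 71.8 CPM in Sox2-KD. In the group labelled hnRNPK-KD it summed to 34.3 to 71.4 CPM, and in Cdk9-KD to 26.4 to 38.5 CPM. Such a sum is an RNA level and not a share of germ cells, and it was not tested against the level of Kit. Of the 6 germ cell genes, 3 lay above control and 3 below it in Sox2-KD, with a median log2FC of 0.02. Ddx4 rose in Sox2-KD and Tfap2c fell in Cdk9-KD. The endothelial and blood list summed to 147.5 to 149.5 CPM in control, 93.6 to 136.1 CPM in Sox2-KD, 81.5 to 116.0 CPM in the group labelled hnRNPK-KD and 137.3 to 143.6 CPM in Cdk9-KD. Nearly all of that sum was Pecam1, which ESCs also express, and the blood genes Ptprc and Tal1 had at most 5 counts in a library. The fibroblast list summed to 4.98 to 6.19 CPM in control and 4.62 to 5.27 CPM in Sox2-KD, where 1 of 4 genes tested was called higher. Its sum was below control in the group labelled hnRNPK-KD, at 2.39 to 3.11 CPM, and in Cdk9-KD, at 2.25 to 4.91 CPM. In Sox2-KD, where 4.32% of all genes were called, edgeR also called 1 of 4 mesoderm genes tested higher and 1 of 4 neural genes tested lower. In Cdk9-KD, where 0.139% of all genes were called, it called 1 of 4 mesoderm genes higher and 0 of 4 neural genes. In bulk RNA, fewer cells with a transcript and less of it per cell cannot be told apart, and the part of these cell types in the values of Kit, Fgfr2, Igf2 and the other genes was not tested.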

How the data were processed

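Poly(A) RNA of 8 libraries was sequenced as 150-base read pairs. The authors trimmed reads with Trimmomatic, aligned them with STAR (version 2.7.9a in the submitters' processing notes) to GENCODE vM23 on mm10, and deposited raw counts per gene from featureCounts (2.0.1), neither normalized nor pooled. How strand was handled, and how reads that fall on several genes were assigned, is not given in the sources used here. Symbols, positions and exon lengths came from GENCODE vM21, which matched 55154 of 55335 genes and left 181 unmatched. Low counts were removed by filterByExpr at a minimum count of 10 and a total of 15. The main test was edgeR 4.0.16 (R 4.3.3), TMM, a group term, all 8 libraries in 1 quasi-likelihood fit, and Benjamini-Hochberg adjustment over 16504 genes, with the thresholds of the study. SE was the absolute log2FC divided by the square root of F. DESeq2 1.42.0 was an alternative, and other alternatives changed the scaling, the filter, the libraries and the block. Totals of 16709201 to 17719366 counts per library limit the precision of genes with few counts. The scripts were tested on simulated counts. The members and lists were chosen with earlier results of these data known. Beside the 9 members, the named genes were the related receptors, the called genes of each list (at most 5 by size), the targeted genes, and the 5 genes most and least like Kit by Pearson correlation of log2 CPM (prior count 2, average log2 CPM over 3); Zyx and the untested ligands were added after their values were seen. Replicates differed by more than counting noise and were kept apart. Some genes that these rules would name are not reported here.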

Additional observations from a re-analysis of the deposited data

Results flagged for a closer look

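The following genes outside the 9 differed between 2 knockdown groups in the same edgeR fit, with Benjamini-Hochberg adjusted p over all genes, and no explanation was examined. All but Flt3 and Kdr were looked at because they were called in Sox2-KD against control. The same Sox2-KD libraries enter these tests, so their p-values are no independent support. Among the receptors, the log2FC of Sox2-KD against Cdk9-KD was 4.16 for Flt3 (SE 1.09, 23 and 19 counts against 0 and 2), 1.90 for Kdr (SE 0.33, adjusted p = 0.00824) and 3.27 for Fgfr2 (SE 0.54, adjusted p = 0.00588). Among the ligands and binding proteins, Igf2 was at least 7.82-fold higher in Sox2-KD than in both libraries labelled hnRNPK-KD and at least 7.77-fold higher than in Cdk9-KD, both against 3 counts per library. Flt3 and Igf2 passed the count filter only through the Sox2-KD libraries, where they were high, so no p is given for them. Igfbp4 was higher in Sox2-KD than in libraries labelled hnRNPK-KD by a log2FC of 2.74 (SE 0.55, adjusted p = 0.0201). Igfbp2 was lower, at -1.78 (SE 0.25, adjusted p = 0.005) against the libraries labelled hnRNPK-KD and -2.38 (SE 0.26, adjusted p = 0.0012) against Cdk9-KD.

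Among the signalling genes, Gab2 was higher in Sox2-KD by 2.72 (SE 0.48, adjusted p = 0.0115) than in libraries labelled hnRNPK-KD and by 2.55 (SE 0.47, adjusted p = 0.0101) than in Cdk9-KD. Lrig3 was lower, at -1.55 (SE 0.22, adjusted p = 0.00535) and -1.95 (SE 0.22, adjusted p = 0.00144), and Yes1 at -1.21 (SE 0.20, adjusted p = 0.00948) and -0.88 (SE 0.20, adjusted p = 0.025), in the same order.

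Of the 9 members, Met had every library on opposite sides of control in different knockdowns, with a log2FC of -0.53 in Sox2-KD and -0.67 in libraries labelled hnRNPK-KD but 0.97 in Cdk9-KD. Erbb2 did so at 0.28 in Sox2-KD and -0.32 in libraries labelled hnRNPK-KD, and Insr at -0.58 in Sox2-KD and 0.41 in Cdk9-KD. Without 1 library, the Insr value in Cdk9-KD was 0.10, the Erbb2 value in Sox2-KD 0.14 and the Met value in libraries labelled hnRNPK-KD -0.38. The difference was not tested for these members, which were chosen with the values known.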

How the results depend on the processing

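With 2 libraries a group, a call depends on each library, and genes with under about 100 counts, such as Kitl, Met, Flt3, Fgfr2 and Igf2, are limited by depth. In the Sox2-KD comparison, leaving out 1 library in turn gave 144 to 840 genes called over all genes tested (713 with all 8), 1 to 4 other receptor tyrosine kinases (3 with all 8), 1 to 3 ligands and binding proteins, 0 to 3 signalling genes, and 1 to 3 of the 9 members past the call rule. The count of 144 was that without the second Sox2-KD library. DESeq2 called 1029 genes over all genes tested there, with 5 other receptor tyrosine kinases, and put 4 members past the call rule. A minimum of 10 counts in every library left 1 ligand or binding protein called, with 558 genes called in all. A fit of only the 4 libraries compared called 5 signalling genes, with 820 genes called in all. In the comparison of the libraries labelled hnRNPK-KD, DESeq2 called 83 genes and put 1 member past the rule, no filter gave 1 gene, and leaving out libraries gave 0 to 1. In the Cdk9-KD comparison, DESeq2 called 222 genes, with 2 other receptor tyrosine kinases, and put 4 members past the rule. Leaving out libraries gave 0 to 33 genes and 0 to 1 other receptor tyrosine kinase. The cause of these shifts was not tested.

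The replicate numbers were shared between groups, and deviations of same-numbered libraries from their group means correlated between -0.22 and 0.21 over the 6 pairs of groups, so they were not taken as pairs. With the number as a replicate block, 695 genes were called in Sox2-KD, 0 in the group labelled hnRNPK-KD and 15 in Cdk9-KD (23 without it). The receptor tyrosine kinases called stayed at 3, 0 and 0, the signalling genes at 3, 0 and 0, the members past the rule at 2, 0 and 0, and the ligands and binding proteins went to 2, 0 and 0. With the block, Igfbp4 lost its call in Sox2-KD. The signs of Fgfr2, Epha7, Fgfr1, Igf2, Igfbp4, Igfbp2, Gab2, Lrig3 and Yes1 in Sox2-KD against control, and of Kit, Epha1 and Epha2 in all 3 comparisons with control, held in every alternative that gave a value. Differences between knockdowns, Zyx and the cell type markers were not run under the alternatives.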
